A study of Mus musculus with 15 samples.

Results

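The transcripts described here are those of 10 genes that bind, store or move zinc, iron and manganese: the metallothioneins Mt1, Mt2 and Mt3, the transporters Slc30a1, Slc30a3 and Slc39a14, the ferritin subunits Fth1 and Ftl1, the transferrin receptor Tfrc and transferrin itself, Trf. They were chosen by name, with earlier results of these data known, as 10 of the 43629 genes in the count files. All 10 were among the 15864 genes with enough counts to be tested. Whole brains of 15 male wildtype C57BL/6J mice were sequenced, 1 library per mouse. The mice were 3 months (young) or 24 months (old) old by the labels and had either food ad libitum (AL, the controls) or intermittent fasting, which the study ran as every-other-day feeding (EOD), short-term in young mice and almost lifelong in old mice. The AL groups held 4 young and 4 old mice, and the EOD groups 3 young and 4 old mice.

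Metallothioneins are small cysteine-rich proteins that bind zinc and copper, and their genes are induced by zinc through the transcription factor MTF1 and by glucocorticoids. In the brain Mt1 and Mt2 are mainly astrocytic, and Mt3 is the form typical of the nervous system. Iron reaches cells bound to transferrin and enters through the transferrin receptor, and the surplus is stored in ferritin shells built of heavy (Fth1) and light (Ftl1) subunits. Iron regulatory proteins bind hairpins called iron-responsive elements when iron is scarce: bound at the start of a ferritin mRNA they block its translation, and bound in the tail of the Tfrc mRNA they keep it from being degraded.

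The genome sequence around these genes was searched for letter patterns of metal response elements and iron-responsive elements, and stretches of it are printed below. The 3 metallothionein genes lie side by side, with Mt3 at a higher level and a smaller spread than Mt1 and Mt2 in these mice. Fth1 rose and Tfrc fell with age averaged over diets. The part of any match in these differences was not tested. Mt1, Mt2 and Mt3 lie within chr8:94152607-94180325 of mouse build GRCm38 on the + strand. The 250 bases upstream of each RefSeq start were searched on both strands for the core of the metal response element, TGCACNC or TGCGCNC, whose matches are in capitals (on the other strand they read GNGTGCA or GNGCGCA).
Mt1 (chr8:94178839-94179088, + strand): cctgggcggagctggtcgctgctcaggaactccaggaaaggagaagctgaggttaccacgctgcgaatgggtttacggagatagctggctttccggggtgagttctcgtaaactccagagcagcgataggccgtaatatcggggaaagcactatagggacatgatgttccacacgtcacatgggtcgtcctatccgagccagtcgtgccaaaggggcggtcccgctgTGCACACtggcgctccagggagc
Mt2 (chr8:94172368-94172617, + strand): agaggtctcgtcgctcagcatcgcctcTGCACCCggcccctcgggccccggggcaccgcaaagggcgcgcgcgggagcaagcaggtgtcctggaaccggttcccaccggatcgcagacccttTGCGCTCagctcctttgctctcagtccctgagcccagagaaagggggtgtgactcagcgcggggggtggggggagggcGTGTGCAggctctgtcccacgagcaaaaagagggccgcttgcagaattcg
Mt3 (chr8:94152357-94152606, + strand): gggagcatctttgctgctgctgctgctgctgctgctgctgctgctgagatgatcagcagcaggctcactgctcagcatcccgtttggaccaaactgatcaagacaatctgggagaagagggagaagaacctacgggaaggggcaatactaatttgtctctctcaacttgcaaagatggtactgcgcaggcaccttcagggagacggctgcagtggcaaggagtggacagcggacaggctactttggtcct
The windows of Mt1, Mt2 and Mt3 held 1, 3 and 0 matches. Of 32851 RefSeq promoters, 21.4% held at least 1 match in a window of this length and 1.26% held at least 3. Mt1 also has annotated starts 122 and 152 bases further downstream, so bases just upstream of those starts fall outside its window. A match is a run of letters and not a measured binding site.

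Iron-responsive elements were searched along whole protein-coding transcripts as a C, then 5 bases, the loop CAGTGN, and 5 bases that pair with the first 5. The N was any base but G, and pairs of G with T were allowed. The region of each match in the 10 genes was then read from the annotation. The loop is in capitals, and each line holds the 30 bases around it, read 5′ to 3′ along the transcript.
Fth1 5′ UTR (chr19:9982732-9982761, + strand): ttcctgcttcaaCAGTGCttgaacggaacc
Ftl1 5′ UTR (chr7:45459778-45459807, − strand): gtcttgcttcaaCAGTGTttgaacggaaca
Tfrc 3′ UTR (chr16:32631219-32631248, + strand): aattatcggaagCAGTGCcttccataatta
Tfrc 3′ UTR (chr16:32631598-32631627, + strand): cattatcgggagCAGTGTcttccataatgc
Tfrc 3′ UTR (chr16:32631663-32631692, + strand): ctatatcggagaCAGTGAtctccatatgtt
Tfrc 3′ UTR (chr16:32631710-32631739, + strand): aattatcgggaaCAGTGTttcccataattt
Fth1 and Ftl1 each held 1 such element in the 5′ UTR, and Tfrc held 4 in the 3′ UTR. The pattern misses elements with an unpaired base in the stem or another loop, so these are counts of matches and may be too low. The same pattern was found anywhere in a transcript, coding sequence included, in 222 of 21901 genes (1.01%), and the other 7 of the 10 genes held none. Among the 61 other metal-handling genes listed for comparison, the iron exporter Slc40a1 was the single gene with one.

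Each library held 5198748 to 13610729 counts assigned to genes (median 9886766), and levels are given as CPM, counts scaled to the size of the library, after TMM normalisation. The third young AL mouse stood apart from the rest. It had the largest total, counts in 17280 genes against 19054 to 20880 in the other mice, and a median correlation with the others of 0.957 against 0.977 to 0.981. The mice were sequenced in 3 lanes, and lane 3 held no young EOD mouse. Each comparison was an edgeR quasi-likelihood test across all 15864 genes, called at a false discovery rate (FDR) under 0.1, and errors of log2 fold changes are standard errors (SE).

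Levels per kilobase of exon spanned a wide range. Fth1 was the highest at 1212 CPM per kb averaged over the 15 mice, followed by Mt3 at 284, Mt1 at 142 and Mt2 at 94.1. The ranges over mice of Mt1 (88.6 to 221) and Mt2 (44.3 to 154) overlapped, whereas every mouse had more Mt3 (246 to 333) than any had Mt1. Below these came Tfrc at 29.1, Slc30a3 at 16.2, Slc30a1 at 10.5 and Slc39a14 at 3.84 CPM per kb, and the ranges of Slc30a3 (12.7 to 22.7) and Slc30a1 (7.54 to 13.0) overlapped. Levels of Trf and Ftl1 cannot be placed in this order. Of the 3320 exon bases of Trf, 2108 also belong to Gm20425 on the same strand, which had 0 counts in every mouse, and 58.4% of the 50-base words of Ftl1 recur in other genes, mostly its copy Ftl1-ps1. The same share was 45.8% for Mt2, all of it with Gm45774, which was not among the genes counted, and 0% for Mt1, Mt3 and Tfrc. Mt4, the remaining metallothionein, had 0 counts in all 15 mice.

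Among mice of the same group, Mt1, Mt2 and Tfrc varied most, with pooled within-group standard deviations (SD) of 0.325, 0.341 and 0.326 on the log2 CPM scale. The median over all genes tested was 0.197. Mt3, Fth1 and Trf were tighter, at 0.127, 0.126 and 0.147, and Slc39a14 varied least of the 10, at 0.0853.

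**Figure D1:**
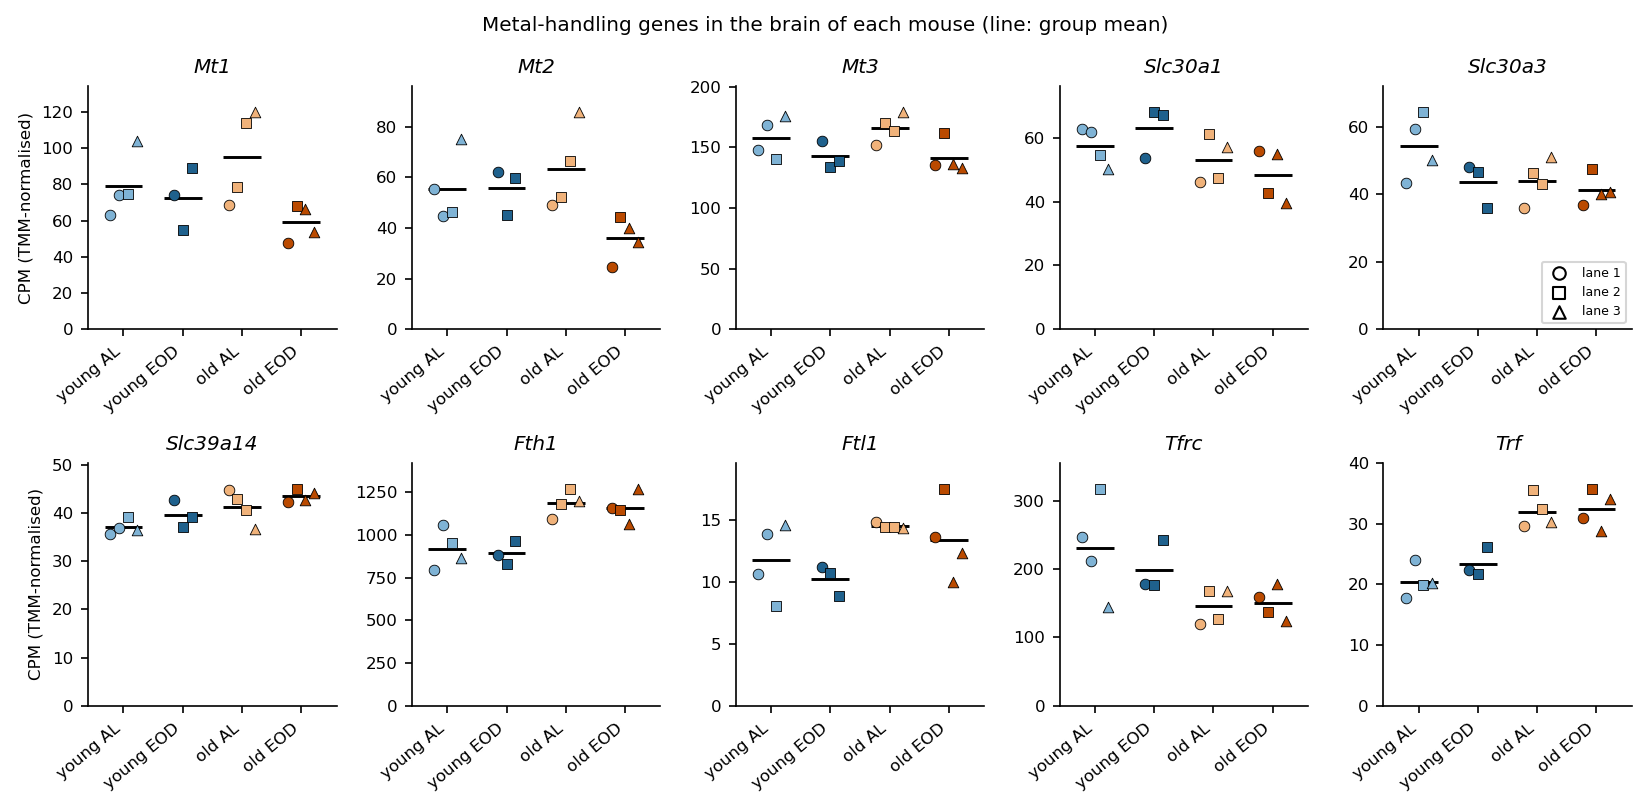
TMM-normalised CPM (y axis, from 0, a separate scale for each gene) of the 10 genes in each of the 15 mice, by group on the x axis. Each point is 1 mouse, its shape is the sequencing lane and the line is the group mean. Fth1 and Trf are higher in every old mouse than in every young mouse, and Mt1 and Mt2 are lower in every old EOD mouse than in every old AL mouse.

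The first question was whether these transcripts changed with age, and it was asked within each diet and as an average over both. The iron genes carried the answer. Fth1 and Trf rose with age in AL mice and in the average over diets, and Tfrc fell in the average over diets. In AL mice 2 of the 10 genes passed the test (Fth1 and Trf, both higher), against 1.09% of all genes tested. In EOD mice 0 of the 10 passed, against 0.29% of all genes. Averaged over diets 3 of the 10 passed (Fth1 and Trf higher, Tfrc lower), against 2.3% of all genes. In this tissue a change in the share of a cell type and a change in RNA per cell cannot be told apart.

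Fth1 (chr19:9982703-9985092), the heavy ferritin subunit that carries the ferroxidase activity, had CPM values of 798, 1059, 954 and 864 in the 4 young AL mice and 884, 830 and 966 in the 3 young EOD mice. The old AL mice had 1095, 1181, 1272 and 1202, and the old EOD mice 1161, 1147, 1064 and 1269. Every old mouse was above every young mouse, though the closest pair, 1064 against 1059, nearly touched. Fth1 was 1.29-fold higher with age in AL mice (log2 fold change 0.37 ± 0.081 SE, FDR = 0.0278) and 1.30-fold higher averaged over diets (0.37 ± 0.0599, FDR = 0.000955). In EOD mice the difference was 0.38 ± 0.0882 and missed the threshold (FDR = 0.114), which it passed in DESeq2 (FDR = 0.0142) and in limma voom (FDR = 0.00678). It also passed without the first, the second or the third young AL mouse (FDR = 0.0625, 0.0524 and 0.0797) and without the third old EOD mouse (0.42, FDR = 0.0831). It did not pass with any other mouse left out, and the FDR rose to as much as 0.708. Without the third young AL mouse the difference was 0.39 in AL mice (FDR = 0.0348), and without the third old AL mouse the call in AL mice was lost (0.33, FDR = 0.135). Within lanes 1, 2 and 3 the old mice exceeded the young by 0.31, 0.39 and 0.44 in mean log2 CPM.

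Trf (chr9:103204001-103230444), the iron carrier that oligodendrocytes and choroid plexus make in the brain, had 17.7, 24.0, 19.9 and 20.2 CPM in young AL mice and 22.4, 21.7 and 26.2 CPM in young EOD mice. Old AL mice had 29.6, 35.6, 32.5 and 30.3 CPM, and old EOD mice 30.9, 35.8, 28.8 and 34.1. The 7 young mice, up to 26.2, lay below all 8 old mice, from 28.8. The rise with age was 1.56-fold in AL mice (log2 fold change 0.64 ± 0.111 SE, FDR = 0.00387), and 1.47-fold averaged over diets (0.55 ± 0.0823, FDR = 0.000425). In EOD mice it was 0.47 ± 0.121 (FDR = 0.215), and it passed there in DESeq2 (FDR = 0.0792) and in limma voom (FDR = 0.0441). With each mouse left out in turn it did not pass there (FDR = 0.129 to 0.892). Lane by lane the difference was 0.51, 0.62 and 0.61 in mean log2 CPM, and without the third young AL mouse the fold change in AL mice was 0.63 (FDR = 0.0082). These counts come from the 1212 exon bases of Trf that no other listed gene overlaps.

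The age difference itself did not differ detectably between diets for either gene. The interaction was 0.01 ± 0.119 SE for Fth1 and -0.17 ± 0.164 SE for Trf on the log2 scale (both FDR = 1.0), so the loss of the call in EOD mice, with 3 young mice, does not show a smaller rise there. Of the 10 genes, 2 had CPM values in all old mice above those in all young mice (Fth1 and Trf), a pattern shown by 0.75% of all genes. In 0 of the 10 were all old mice below all young mice, against 0.151% of all genes.

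Tfrc (chr16:32608920-32632794), the receptor that takes up transferrin-bound iron, had 247, 212, 318 and 145 CPM in young AL mice and 178, 177 and 242 CPM in young EOD mice. In old AL mice it was at 119, 168, 127 and 168 CPM, and in old EOD mice at 159, 138, 178 and 124. The fourth young AL and the second young EOD mouse lay inside the range of the old mice (119 to 178 CPM), the first young EOD mouse was level with its top, and the third young AL mouse was the highest of all 15. Averaged over diets Tfrc was at 0.689 of its young level (log2 fold change -0.54 ± 0.129 SE, FDR = 0.0372), and in AL mice the change was -0.66 ± 0.176 (FDR = 0.104). The change in AL mice was -0.46 without the third young AL mouse (FDR = 0.382). It passed without the fourth young AL mouse (-0.82, FDR = 0.00673) and without the third young EOD mouse, which is in neither group compared but in the same fit (-0.66, FDR = 0.0912). Without the third young AL mouse the averaged change was -0.43 (FDR = 0.0587), and with the lane as a covariate it was -0.50 (FDR = 0.127). Without the third young EOD mouse it was -0.45 (FDR = 0.124). The old mice were lower by 0.61 and 0.74 in mean log2 CPM in lanes 1 and 2 but not in lane 3 (0.09 higher), which held 1 young mouse.

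Ftl1, the light ferritin subunit, had low counts (at the lowest 62 in a young and 76 in an old mouse), and its reads are partly shared with copies. It was at 8.01 to 14.6 CPM in young mice (median 10.7) and 10 to 17.5 CPM in old mice (median 14.3). The difference averaged over diets was 0.34 ± 0.135 SE on the log2 scale (FDR = 0.295) and did not pass, and the 2 ages overlapped.

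**Figure D2:**
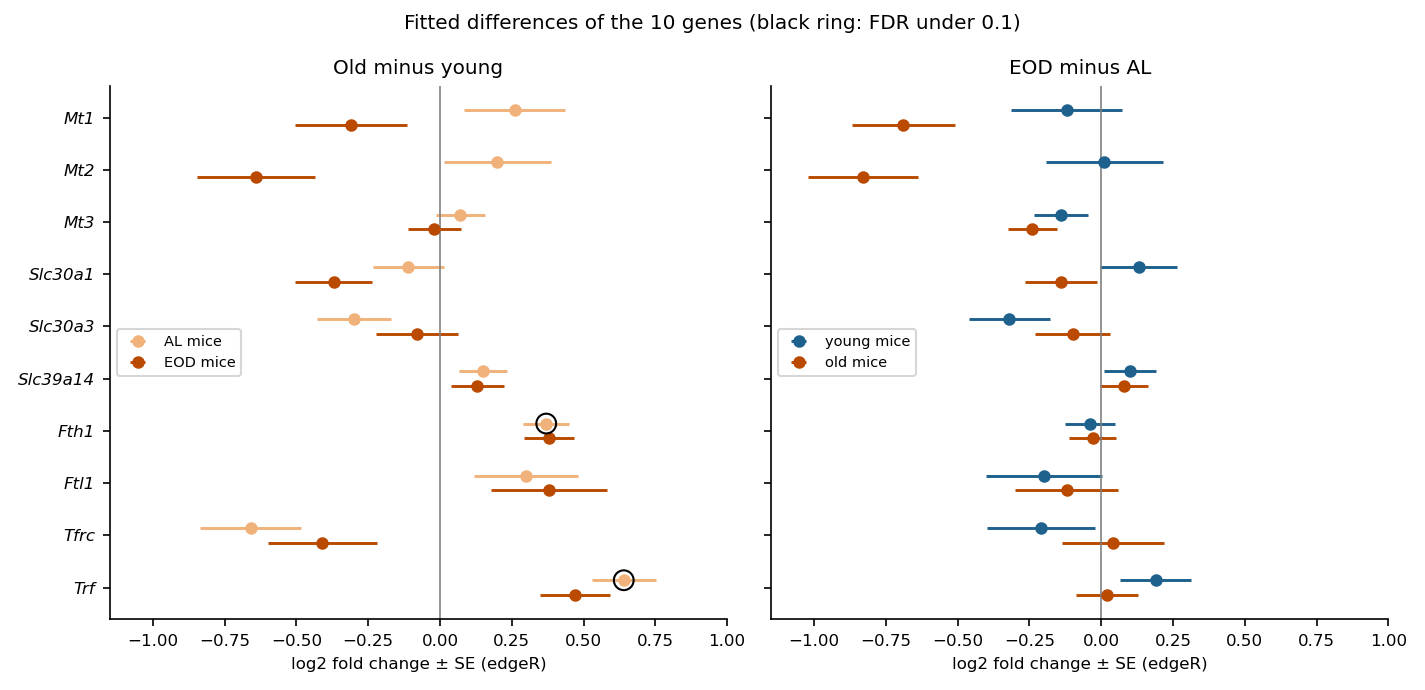
Fitted log2 fold changes (x axis) of the 10 genes with age in AL and EOD mice (left) and with EOD feeding in young and old mice (right). Points are edgeR estimates, bars are ± 1 SE and black rings mark FDR under 0.1, which Fth1 and Trf reach with age in AL mice. The 2 age estimates lie together for Fth1 at 0.37 and 0.38, and apart for Mt2 at 0.20 and -0.64.

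None of the metallothioneins or zinc and manganese transporters passed the test for age. Slc30a1, the zinc exporter of the plasma membrane and a target of MTF1, had 50.2 to 68.1 CPM in young mice (median 61.9) and 39.5 to 61.1 CPM in old mice (median 51.3), and its averaged log2 fold change was -0.24 ± 0.0912 SE (FDR = 0.264). Slc39a14, an importer of zinc, iron and manganese, had 35.7 to 42.7 CPM in young mice and 36.8 to 45.1 CPM in old mice, with a change of 0.14 ± 0.0623 (FDR = 0.382). Slc30a3, which loads zinc into synaptic vesicles of glutamatergic neurons, changed by -0.19 ± 0.096 (FDR = 0.447).

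Several cell type markers moved with age in the same libraries. The summed level of 8 microglial markers was 348 to 386 CPM in young mice and 427 to 507 CPM in old mice, with no overlap, and 4 of the 8 passed the test for age averaged over diets, all higher (C1qa by 0.96 ± 0.097 SE on the log2 scale, FDR = 3.26e-06). The oligodendrocyte sum overlapped between ages, at 6418 to 7686 CPM in young and 7069 to 8293 CPM in old mice, and 2 of its 10 markers passed, both higher (Mbp, 0.29 ± 0.0682, and Ermn, 0.48 ± 0.0846). Averaged over diets 6 of these 10 had estimates above 0 and 4 below (list median 0.01). In AL mice 8 were above 0 (list median 0.15), and in EOD mice 8 were below 0 (list median -0.13). The 10 astrocyte markers summed to 5334 to 6118 CPM in young and 5477 to 6283 CPM in old mice, and the astrocyte intermediate filament Gfap alone passed (1.16 ± 0.0567 averaged over diets). In that average 4 of the 10 astrocyte markers had estimates above 0 and 6 below (list median -0.03). Neuronal, endothelial, choroid plexus and red blood cell sums overlapped between ages. Of 8 endothelial markers Itm2a alone passed, and it was lower with age (-0.34 ± 0.0739 averaged over diets, FDR = 0.0196), while 5 of the 8 had estimates above 0 and 3 below (list median 0.10). Of 8 choroid plexus markers 7 had estimates above 0 (list median 0.33), as had all 5 red blood cell markers (list median 0.46), with 0 calls in either list, and all 7 excitatory neuron markers had estimates below 0 (list median -0.12) with 0 calls. The part of these cell types in the changes of Fth1, Trf and Tfrc was not tested. No brain marker list had a gene at 0 in every mouse, whereas of 6 pituitary genes Lhb was at 0 throughout and the list summed to 1039 CPM in the fourth old AL mouse against 0.719 to 18.2 CPM in the other mice.

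**Figure D3:**
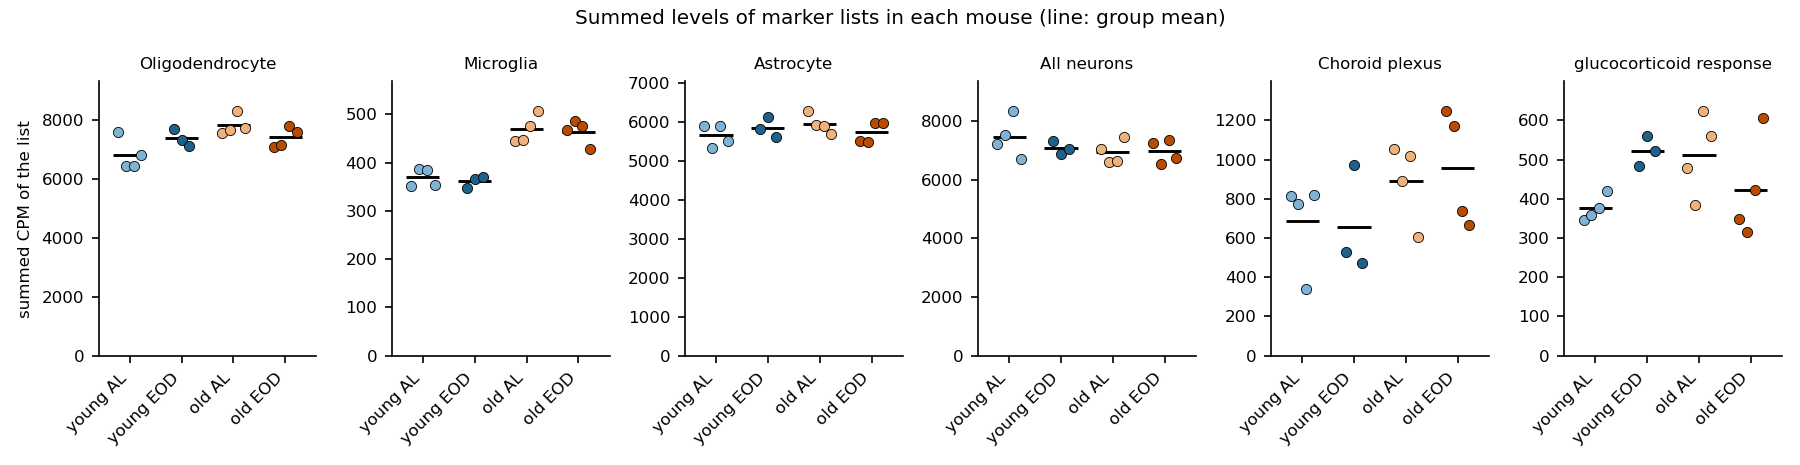
Summed CPM (y axis, from 0) of 6 marker lists in each mouse, by group on the x axis, with a line at each group mean. Microglial sums are higher in every old mouse (427 to 507) than in every young mouse (348 to 386), and the other 5 lists overlap between ages.

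The second question was whether EOD feeding changed these transcripts. The lowest levels of Mt1 and Mt2 in any group were those of the old EOD mice, but no gene passed the test for diet. For diet in young mice, diet in old mice, diet averaged over ages and the interaction of age and diet, 0 of the 10 genes passed, against 0% of all genes in each of the 4 comparisons. At an unadjusted p under 0.05, 657, 409, 715 and 362 of all genes passed, and 1, 3, 4 and 2 of the 10 genes.

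Mt2 had 55.3, 44.8, 46.3 and 75.1 CPM in young AL mice and 62.0, 45.2 and 59.7 CPM in young EOD mice. In old AL mice it had 49.1, 52.0, 66.2 and 85.7 CPM, and in old EOD mice 24.6, 44.3, 40.1 and 34.5 CPM. Every old EOD mouse was below every old AL mouse and every young EOD mouse. The highest old EOD value, 44.3, nearly touched the lowest young EOD value, 45.2, and the lowest young AL value, 44.8. In old mice Mt2 was at 0.563 of its AL level with EOD feeding (log2 fold change -0.83 ± 0.192 SE, unadjusted p = 0.000305, FDR = 0.989 in edgeR), and from young EOD to old EOD mice it changed by -0.64 ± 0.206 (FDR = 0.52). In young mice the diet difference was 0.01 ± 0.204. The interaction, which asks whether the diet difference differs between ages, was -0.84 ± 0.279 (unadjusted p = 0.00658, FDR = 1.0 in edgeR). Within lanes 1, 2 and 3, with 1 or 2 mice a side, old EOD mice were lower than old AL mice by 0.99, 0.40 and 1.20 in mean log2 CPM.

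Mt1 showed the same arrangement in old mice. Its levels were 63.0, 74.1, 75.0 and 104 CPM in young AL mice and 74.2, 55.0 and 89.2 CPM in young EOD mice. They were 68.6, 78.7, 114 and 120 CPM in old AL mice and 47.8, 67.9, 66.4 and 54.0 CPM in old EOD mice. All old EOD mice lay below all old AL mice, though the closest values, 67.9 and 68.6, differed by less than the spread within either group, and old EOD mice overlapped the young. EOD feeding in old mice gave a log2 fold change of -0.69 ± 0.179 SE (unadjusted p = 0.000891, FDR = 1.0 in edgeR), against -0.12 ± 0.193 in young mice, and the interaction was -0.58 ± 0.262 (FDR = 1.0).

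Of the 10 genes, 2 (Mt1 and Mt2) had all old EOD mice below all old AL mice, a pattern shown by 1.36% of all genes. Mt1 and Mt2 varied together within groups (Pearson r = 0.846 with group means removed), so they are not independent cases of it. Mt2 alone had all old EOD mice below all young EOD mice, a pattern shown by 4.29% of all genes. Both Mt1 and Mt2 passed in old mice when genes with as little as 1 count in any mouse were kept (Mt2 FDR = 1.9e-11, Mt1 FDR = 1.47e-09), but that fit gave almost no weight to the spread of each gene between mice. Its prior degrees of freedom, the weight of the spread shared by all genes, were 2170 against 9.81 in the reported fit, and the spread it used for Mt2 fell from a quasi-dispersion of 2.68 to 0.814, so its small FDR values are not read as calls here. Without the third young AL mouse and with the lane as a covariate, Mt2 passed (-0.89, FDR = 0.0931), as 1 of 3 genes called. In DESeq2 and in limma voom neither passed, and the log2 fold changes over the other settings ran from -0.94 to -0.79 for Mt2 and from -0.74 to -0.66 for Mt1. Leaving out the fourth old AL mouse, the highest in both genes, brought them to -0.63 and -0.55. That mouse had the highest pituitary sum (1039 CPM). The third old AL mouse, kept in that fit, had the next highest (18.2 CPM). The part of pituitary tissue in the difference was not tested.

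Mt3 had 148, 168, 140 and 176 CPM in young AL mice and 155, 134 and 139 CPM in young EOD mice. Old AL mice had 152, 170, 163 and 179 CPM, and old EOD mice 135, 162, 136 and 133 CPM. The second old EOD mouse sat within the old AL range and the other 3 below it. The difference in old mice was -0.24 ± 0.0857 SE on the log2 scale (unadjusted p = 0.0119, FDR = 1.0 in edgeR), and averaged over ages it was -0.19 ± 0.0632 (FDR = 0.983).

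The metallothioneins varied together from mouse to mouse. Across the 15 mice log2 CPM of Mt1 and Mt2 had Pearson r = 0.884 and Spearman rho = 0.843 (permutation p = 2e-05, the smallest that 100000 resamples can give, and 0.00018; adjusted over the 3 pairs, 6e-05 and 0.00054). For Mt1 and Mt3 r was 0.740 and rho 0.771 (permutation p = 0.0018 and 0.0013, adjusted 0.0027 and 0.0019), and for Mt2 and Mt3 they were 0.693 and 0.675 (permutation p = 0.0029 and 0.007, both unchanged by the adjustment). Leaving out the 2 mice farthest from the median of the first gene gave r = 0.810, 0.624 and 0.573. With group means removed the 3 values were 0.846, 0.586 and 0.627, and within lane 2, the single lane with 6 mice, they were 0.912, 0.431 and 0.253. Mt1 and Mt2 have no 50-base word in common with each other.

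**Figure D4:**
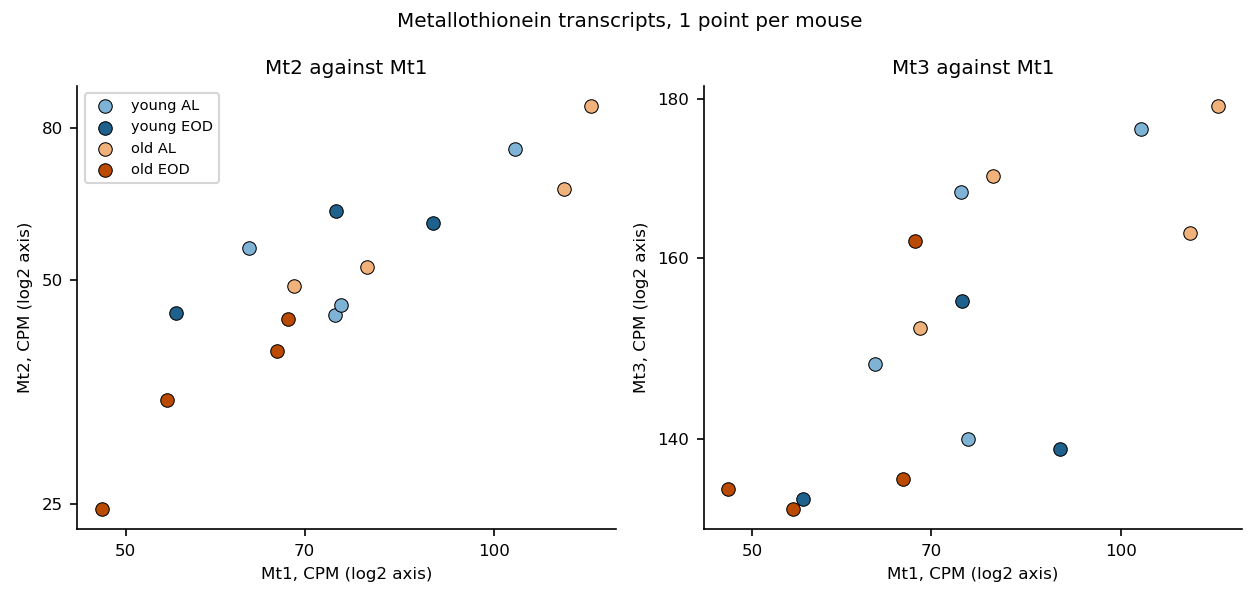
Mt2 (left) and Mt3 (right) against Mt1 in each of the 15 mice, in CPM on log2 axes, coloured by group. The 4 old EOD mice lie at the low end for Mt1 and Mt2 (47.8 to 67.9 and 24.6 to 44.3 CPM), and the third and the fourth old AL mouse lie at the high end of Mt1 (114 and 120 CPM).

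Glucocorticoids induce metallothionein genes, and a list of 10 glucocorticoid-responsive genes, Lcn2 among them, was measured beside them. The list was chosen with earlier results of these data known, so its directions may partly follow from that choice. They are description and not independent support. In old mice 9 of the 10 had estimates below 0 with EOD feeding (median log2 fold change -0.22, 3 at an unadjusted p under 0.05), and in young mice 8 of the 10 had estimates above 0 (median 0.26, 4 at that p). All 10 had estimates below 0 for the interaction (median -0.74, 5 at that p), and 0 passed in each of these comparisons. With age 9 of the 10 were above 0 in AL mice (median 0.23, with Lcn2 the single call) and 8 below 0 in EOD mice (median -0.27, 0 calls). The medians of all genes tested lay between -0.01 and 0.01. The summed level of the list was 346 to 420 CPM in young mice with AL and 484 to 560 CPM with EOD feeding, and in old mice 384 to 624 CPM with AL and 314 to 605 CPM with EOD feeding. The part of a glucocorticoid response in the levels of Mt1 and Mt2 was not tested.

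Slc30a3 was the one other of the 10 genes with an unadjusted p under 0.05 for diet. It had 43.5, 59.5, 64.4 and 50.3 CPM in young AL mice and 48.2, 46.6 and 35.9 CPM in young EOD mice, which overlap. The diet difference was -0.32 ± 0.141 SE in young mice (FDR = 0.996) and -0.21 ± 0.0962 averaged over ages (FDR = 0.983), and in old mice, at 35.9 to 51.0 CPM with AL and 36.8 to 47.6 CPM with EOD feeding, it was -0.10 ± 0.131 (FDR = 1.0). For the iron genes the diet differences in old mice were small: -0.03 ± 0.0809 for Fth1, 0.02 ± 0.109 for Trf and 0.04 ± 0.177 for Tfrc (all FDR = 1.0).

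Of 61 other listed metal-handling genes 53 were tested. For age 1 of these passed within the AL diet, 0 within the EOD diet and 2 in the average over diets, against 1.09%, 0.29% and 2.3% of all genes, so these counts are near the background. For diet 0 passed in each of the 4 comparisons that involve diet (for age 7, 2 and 8 had an unadjusted p under 0.05, as had 1511, 911 and 1856 of all 15864 genes, and 5, 1, 2 and 2 for diet in young, in old, averaged and the interaction). Their median log2 fold change was 0.01 for age averaged over diets and 0.01 for diet in old mice. The 10 genes had medians of 0.00 and -0.11, and all genes tested had medians of -0.00 and 0.00.

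Both calls were in the list of iron uptake, export and oxidation, where 4 of 14 genes passed for age averaged over diets (Trf, Slc11a1 and Lcn2 higher, Tfrc lower), 2 of them already described, against 2.3% of all genes. Lcn2, which encodes a protein that binds iron-carrying siderophores and is an acute-phase marker of reactive glia, had at most 0.394 CPM in young mice. It had 0.995, 0.656, 12.1 and 8.91 CPM in old AL mice and at most 1.26 CPM in old EOD mice, so its averaged rise of 3.24 ± 0.767 SE on the log2 scale (FDR = 0.0339) rested mainly on the third and the fourth old AL mouse, the same mice that had the highest Mt1. Without the fourth old AL, the first old EOD or the first young EOD mouse neither Lcn2 nor Slc11a1 passed. Slc11a1, a divalent metal transporter of phagocyte lysosomes, had 1.10 to 3.02 CPM in young and 2.21 to 4.92 CPM in old mice and rose by 0.97 ± 0.261 (FDR = 0.0692).

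In the other lists the count was 0 apart from the members. All 7 genes tested for iron storage and release had estimates above 0 for age averaged over diets, with Fth1 the single call and Pcbp2, an iron chaperone, the next of the non-members at 0.08 ± 0.0527 SE (FDR = 0.569). Some were level with 0, such as Hmox2 at 0.00 ± 0.0606, and 4 of the 7 were above 0 in AL mice and 6 in EOD mice. Averaged over diets, 8 of 9 zinc and manganese exporters had estimates below 0, with a list median of -0.10, and Slc30a9 had -0.10 ± 0.0421 (FDR = 0.315). Among 13 importers Slc39a7, which releases zinc from the endoplasmic reticulum and Golgi, was closest to the threshold at -0.63 ± 0.184 (FDR = 0.11). Aco1, which encodes an iron regulatory protein, had -0.18 ± 0.0847 (FDR = 0.418), the copper chaperone Atox1 -0.16 ± 0.105 (FDR = 0.592) and Mtf1 0.04 ± 0.0657 (FDR = 0.869). For diet averaged over ages the smallest p-values among non-members belonged to Slc39a8 (-0.42 ± 0.163), Fbxl5 (0.12 ± 0.0508), Cp (-0.15 ± 0.0772), Atox1 (-0.21 ± 0.105), Slc30a9 (0.08 ± 0.0421), Mtf2 (0.10 ± 0.0653) and Hmox1 (0.36 ± 0.269) in their lists, all with FDR = 0.983.

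**Figure D5:**
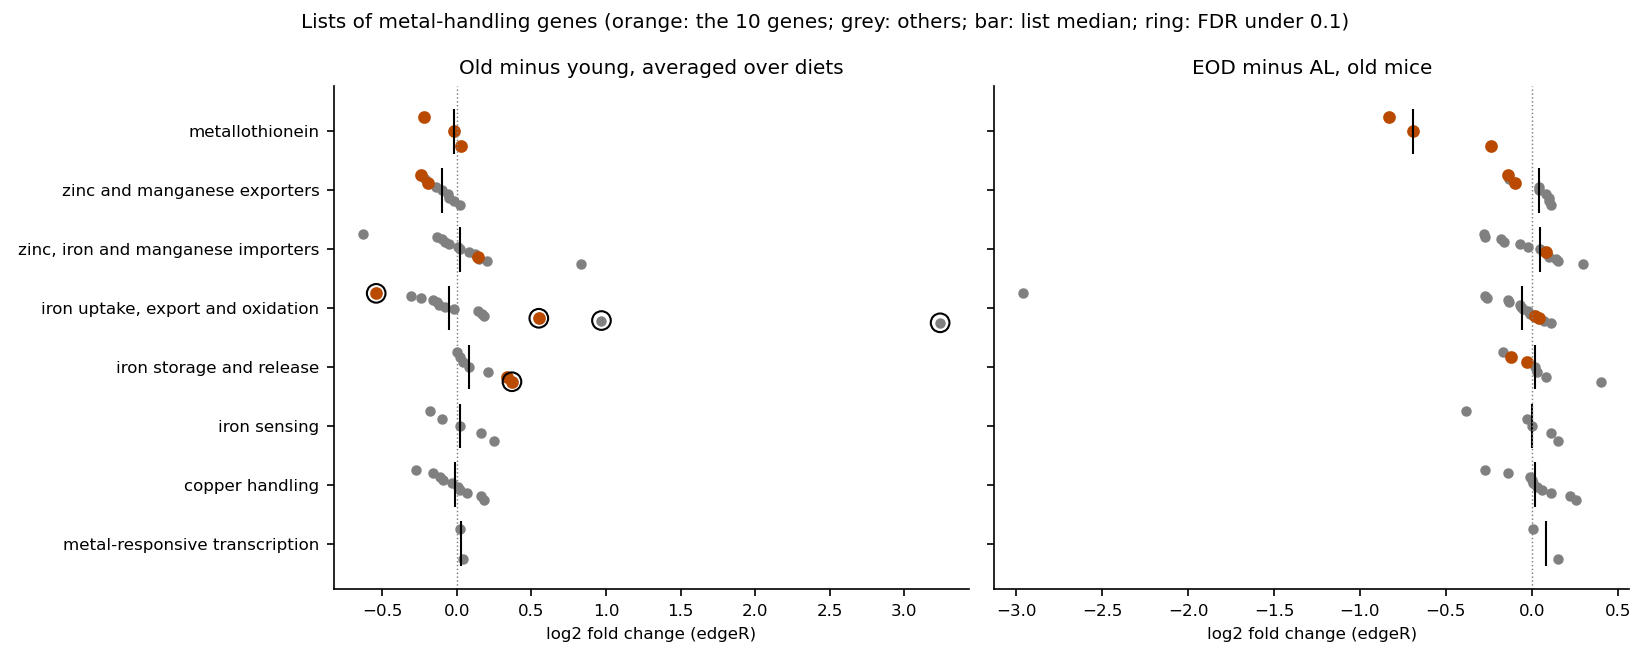
Log2 fold changes (x axis) of every tested gene in 8 lists of metal-handling genes, for age averaged over diets (left) and for EOD feeding in old mice (right). Orange points are the 10 genes, grey points the other 53, black bars list medians and rings FDR under 0.1. The rings at left are Tfrc, Trf, Slc11a1, Lcn2 and Fth1, there is none at right, and the metallothioneins are the list farthest to the left there, with a median of -0.69.

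Genes outside these lists with the most similar profiles across mice were sought for 5 of the 10, among 10903 genes and by the smaller of the Pearson correlations over 15 mice and over 14 without the third young AL mouse. The nearest to Fth1 were Ctsd, a lysosomal protease (r = 0.92 over 15 mice), Slc5a5 (0.92) and Gpx4 (0.89), and to Trf they were Mapk3 (0.91), Slc5a5 (0.91) and Gfm2 (0.90). Ctsd rose with age by 0.40 averaged over diets (FDR = 1.6e-05), Slc5a5 by 0.41 (FDR = 0.0122), Mapk3 by 0.26 (FDR = 0.0199) and Gfm2 by 0.35 (FDR = 0.0105), while Gpx4 had 0.25 (FDR = 0.158). For Tfrc the nearest were Hnrnpdl, Zfp810 and Zfp512b (each 0.93), for Mt2 Pdgfb (0.84), Shank3 (0.84) and Ttyh3 (0.82), and for Slc30a3 Cckbr (0.89), Il17ra (0.88) and Stx6 (0.83). These correlations describe profiles over mice that share groups, lanes and depth.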

How the data were processed

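Whole brains of 15 male C57BL/6J mice were measured by RNA-seq, 1 library per mouse. Per the labels and the study's methods, total RNA was sequenced as 50 bp single-end reads, trimmed, aligned with STAR to GRCm38 and assigned to Ensembl release 79 genes with featureCounts v1.5.0-p1, keeping primary alignments of mapping quality 5 or more on the reverse strand. The deposited values are raw counts per gene, without normalisation. Reads that fit several places or several genes were not counted, which lowers Trf and Ftl1.

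The counts were analysed with edgeR 4.0.16 in R 4.3.3: genes were filtered with filterByExpr, scaled by TMM and fitted with 1 mean per group, and 7 contrasts were tested by quasi-likelihood with Benjamini-Hochberg adjustment over 15864 genes at FDR 0.1. CPM are TMM-scaled, and log2 CPM add a prior count of 2. The depth of 5198748 to 13610729 counts per mouse limits the precision of genes with few counts, such as Ftl1. Groups came from the sample titles. The same numbers on mice of different groups did not pair them (21 same-numbered pairs, correlation of deviations from the group means -0.113 to 0.113, 2 over 0.1), so no block was used. Of 21 replicate pairs none agreed within sampling noise (chi-square per degree of freedom at least 3.14). Sequencing lanes were read from the alignment names in the file headers. The fit was also run on simulated counts drawn from its own estimated means and dispersions, with known changes by age only. That simulation had no lane effect, no unlike mouse and no diet change, so it does not bear on these. Alternatives were another filter, RLE scaling, DESeq2 1.42.0, limma 3.58.1 voom, FDR 0.05, a replicate block, the lane, 2 groups only, an additive model and each mouse left out. Leaving out the third young AL mouse together with the lane covariate was chosen after seeing the data.

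Named genes were the 10 members, other listed metal-handling genes past the threshold or with the smallest p of their list for age or diet averaged, and the 3 genes most correlated with each of 5 members. The members and lists were chosen with earlier results of these data known. Promoter windows are RefSeq sequence on GRCm38.p6, and transcripts and their untranslated regions are from the GENCODE vM21 annotation. Labels give the old mice as 24 months, and each mouse is 1 animal.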

Additional observations from a re-analysis of the deposited data

Results flagged for a closer look

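In 30 groups of 4 mice (10 genes in 3 groups), 1 value stood far from the others of its group: Mt3 in the second old EOD mouse, at 162 CPM against 133 to 136 CPM in the other 3, with a gap of 0.896 of the whole range. Chance flags about 1 group in 20.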

How the results depend on the processing

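Results were refitted under 26 other settings, of which the fit of the 2 groups alone applies to 4 of the 7 comparisons and the additive model to 2. Over 1740 refitted log2 fold changes of the 10 genes, 1649 kept their direction and their side of the threshold, 6 lost the call, 25 gained one and 60 changed sign. None of those 60 passed FDR 0.1, and the 5 that passed in the reported fit kept their direction in every setting.

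The counts of the 10 genes called moved as follows. For age in AL mice (2 reported), 3 were called with every gene of at least 1 count (Tfrc added, FDR = 6.24e-12), 1 with only the 2 groups compared and 1 without the third young AL mouse and with the lane (Trf in both). For age in EOD mice (0 reported), 3 were called with every gene of at least 1 count (Mt2, Fth1 and Tfrc), 1 with the lane (Mt2), 2 with limma voom, 2 with DESeq2 (Fth1 and Trf in both), 1 with the 2 groups only (Fth1) and 1 without the third young AL mouse and with the lane (Mt2). With every gene of at least 1 count, 2 were called for diet in old mice, 2 for diet averaged over ages and 2 for the interaction (Mt1 and Mt2 each time). Without the third young AL mouse and with the lane, 1 was called for diet in old mice (Mt2). For age averaged over diets (3 reported), 4 were called with every gene of at least 1 count (Slc30a1 added, -0.24, FDR = 0.0753), and 2 with the lane, with or without the third young AL mouse (Tfrc lost). The fit with every gene of at least 1 count had prior degrees of freedom of 2170, against 9.81 in the reported fit and 9.34 to 10.5 in 20 other edgeR fits, so a gene's own spread had almost no weight in its calls. For the other settings the cause was not tested. For the other metal-handling genes and age in AL mice (1 reported), 2 were called with every gene of at least 1 count, 0 with at least 10 counts in every mouse (which removes Lcn2), 2 with DESeq2 and 0 with the 2 groups only. For age averaged over diets (2 reported), 1 was called at FDR 0.05 and 1 without the third young AL mouse and with the lane. Over all settings but the single mice left out, that count ran from 1 to 3. For diet in old mice (0 reported), 1 was called with every gene of at least 1 count (Lcn2). With each mouse left out in turn, 1 to 3 of the 10 genes were called for age in AL mice, 0 to 1 for age in EOD mice and 2 to 3 for age averaged over diets, and 0 to 2 others for age in AL mice and for age averaged over diets.

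Sign changes were of small log2 fold changes. With each mouse left out, Mt3 ran from -0.09 to 0.05 and Slc30a3 from -0.20 to 0.0045 for age in EOD mice, and Mt1 from -0.10 to 0.06 and Mt3 from -0.01 to 0.06 for age averaged over diets. For diet in young mice Mt1 ran from -0.28 to 0.05, Mt2 from -0.08 to 0.20 and Fth1 from -0.10 to 0.03, and in old mice Fth1 from -0.08 to 0.01, Tfrc from -0.05 to 0.12 and Trf from -0.03 to 0.08. For diet averaged over ages Slc30a1 ran from -0.04 to 0.05, Fth1 from -0.07 to 0.00086 and Tfrc from -0.17 to 0.02. The interaction ran from -0.08 to 0.04 for Slc39a14, -0.07 to 0.07 for Fth1 and -0.07 to 0.23 for Ftl1. Without the third young AL mouse and with the lane, Mt3 was -0.0014 for age in AL mice and -0.01 for age averaged over diets, and Tfrc was 0.01 for diet averaged over ages. The additive model gave 0.0034 for Mt1 and age. Limma voom gave -0.08 for Mt2 and diet in young mice, -0.01 for Trf and diet in old mice and -0.01 for the interaction of Fth1. With the replicate block the interaction was 0.0026 for Slc39a14 and -0.0015 for Fth1, and with the lane 0.02 for Slc39a14. The block, which pairs mice by number alone, called the same 2 genes of the 10 for age in AL mice and the same 3 for age averaged over diets.

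Depth limits the low genes: Ftl1, Slc11a1 and Lcn2 had under 100 counts in at least 1 mouse, and their folds rest on few reads.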
